A study of Mus musculus with 12 samples.

Results

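The genes that drive epithelial-mesenchymal transition (EMT), and the filament gene most used as its marker, were followed by RNA-seq in 2 mouse melanoma lines. They are the transcription factors Snai1, Snai2, Twist1, Twist2, Zeb1, Zeb2 and Prrx1, and Vim, which encodes vimentin. They were chosen by gene symbol, and each of the 8 matched 1 of the 55416 gene IDs in the count tables. The B16 line is a widely used, pigment-forming melanoma of C57BL mice, and YUMM1.1 was established from an engineered mouse tumour with mutant Braf. Each line was left untreated (B16 Control, YUMM1.1 Control) or was exposed to recombinant mouse interferon-gamma (IFNG) at 10 ng/ml for 48 h (B16 IFNG, YUMM1.1 IFNG). All cells grew in the same serum-containing medium, and each of the 4 groups had 3 libraries, 12 in all. The series asks what IFNG does to gene expression in melanoma cells.

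In GENCODE M21 (GRCm38) Vim (ENSMUSG00000026728) lies at chr2:13573927-13582826 on the plus strand and Zeb2 (ENSMUSG00000026872) at chr2:44983632-45117395 on the minus strand. Snai2 (ENSMUSG00000022676) lies at chr16:14705852-14709385 and Twist1 (ENSMUSG00000035799) at chr12:33957671-33959829, both on the plus strand, and Prrx1 (ENSMUSG00000026586) at chr1:163245119-163313710 on the minus strand. All 8 are protein-coding genes, and the counts are per gene.

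EMT factors are DNA-binding repressors and activators that switch epithelial cells to a motile, mesenchymal state. Snai and Zeb proteins are zinc-finger factors that bind the E-box CACCTG and repress junction genes such as Cdh1, Twist proteins are basic helix-loop-helix factors that pair with E proteins, and Prrx1 is a homeobox factor of mesenchyme. Melanocytes come from the neural crest, and in human melanoma ZEB2 and SNAI2 are known from differentiated cells while ZEB1 and TWIST1 are known from dedifferentiated, invasive ones.

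The promoter windows of RefSeq (build GRCm38.p6) were searched for binding sites of interferon-activated and E-box factors, and later for the TATA box. Of them 5 are shown. Those of Zeb2 and Snai1 match a site of the former kinds, and those of Vim and Twist1 match only the TATA box. That of Prrx1, the leading factor of YUMM1.1, has no match. A window runs from 250 bases before a transcription start to 50 bases after it. RefSeq entries were matched for 6 of the 8 genes, with 9 windows in all; Snai2 and Zeb1 were not searched. The Vim window is chr2:13574061-13574360, plus strand, and the Snai1 window is chr2:167537945-167538244, plus strand. For Twist1 it is chr12:33957421-33957720, plus strand, and for Prrx1 chr1:163313601-163313900, minus strand. Zeb2 has 4 windows, of which the second is shown (chr2:45113230-45113529, minus strand), at a start inside the annotated gene. Capitals mark a match to a searched motif, and each sequence is written along the gene's strand.
Vim: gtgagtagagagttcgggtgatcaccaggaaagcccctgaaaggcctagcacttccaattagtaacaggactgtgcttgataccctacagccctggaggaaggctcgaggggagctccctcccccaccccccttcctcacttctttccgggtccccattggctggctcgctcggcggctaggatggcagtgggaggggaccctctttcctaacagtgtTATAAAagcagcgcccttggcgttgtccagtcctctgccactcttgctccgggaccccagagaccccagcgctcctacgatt
Zeb2: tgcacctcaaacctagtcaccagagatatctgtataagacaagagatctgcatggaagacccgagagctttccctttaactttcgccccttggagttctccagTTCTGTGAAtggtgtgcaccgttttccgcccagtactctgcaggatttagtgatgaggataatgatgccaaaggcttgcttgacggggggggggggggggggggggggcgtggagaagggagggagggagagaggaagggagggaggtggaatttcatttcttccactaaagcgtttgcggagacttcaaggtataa
Snai1: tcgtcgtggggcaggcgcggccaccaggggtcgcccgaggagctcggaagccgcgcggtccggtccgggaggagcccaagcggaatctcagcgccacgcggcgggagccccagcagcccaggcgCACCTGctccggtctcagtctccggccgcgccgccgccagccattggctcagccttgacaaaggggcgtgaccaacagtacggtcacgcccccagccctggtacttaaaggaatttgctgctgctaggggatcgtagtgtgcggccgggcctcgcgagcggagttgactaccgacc
Twist1: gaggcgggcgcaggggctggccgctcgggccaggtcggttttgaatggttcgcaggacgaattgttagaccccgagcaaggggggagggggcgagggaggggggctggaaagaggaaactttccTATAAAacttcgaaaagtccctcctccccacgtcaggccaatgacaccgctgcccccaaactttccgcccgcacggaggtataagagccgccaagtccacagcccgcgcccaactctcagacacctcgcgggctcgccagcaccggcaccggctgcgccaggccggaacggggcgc
Prrx1: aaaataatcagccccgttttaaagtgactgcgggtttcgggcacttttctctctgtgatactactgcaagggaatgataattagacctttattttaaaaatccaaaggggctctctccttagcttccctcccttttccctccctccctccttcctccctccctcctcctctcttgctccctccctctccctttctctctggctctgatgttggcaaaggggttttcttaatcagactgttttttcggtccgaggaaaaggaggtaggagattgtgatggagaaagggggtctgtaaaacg

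Motifs were searched on both strands. The gamma-activated site TTCNNNGAA is present in 8.3% of the 32851 mouse windows, and among the 6 genes searched it matched only in Zeb2, as TTCTGTGAA starting 147 bases before the second start. The third Zeb2 window overlaps the second and holds the same match. The interferon-stimulated response element core GAAANNGAA, present in 8.56% of all windows, matched none of the 9. The Snai and Zeb E-box CACCTG is in 20.2% of windows and matched only in Snai1, starting 126 bases before the start; human SNAI1 is known to bind its own promoter through such a box. The wider E-box CANNTG, which contains the former, is in 72.3% of windows and had no further match in the 9. The TATA box TATAAA, added to the search after the windows had been read, is in 13.6% of windows and matched in Vim, 32 bases before the start, and in Twist1, 126 bases before it. The shown windows of Snai1 and Twist1 are rich in G and C, at 70.0% and 66.0% with 34 and 27 CpG pairs, against a median of 52.7% and 7 over all windows, while Prrx1 has 47.7% and 6. These matches are descriptions of sequence only.

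Total counts per library were 2573805 to 7888257 in B16 and 19145253 to 24747859 in YUMM1.1, so low genes were measured less precisely in B16. Levels are given as CPM (reads scaled to a common library total) to compare libraries, and as RPKM (CPM per kilobase of the principal transcript) to compare genes. A gene was called when the Benjamini-Hochberg adjusted p of edgeR's quasi-likelihood test, over all tested genes, was below 0.05. Changes are log2 fold changes with their SE after TMM scaling; scaling by library totals alone would shift the B16 IFNG values by a median of -0.19 and those between the untreated lines by -0.22. Nothing in the labels states that libraries of 1 group were separate cultures, and p-values then reflect only how far these libraries spread, a spread that may be technical. Treatment was visible in both lines: Irf1, a direct IFNG target, went from 28.9 ± 4.63 to 817.5 ± 47.4 CPM in B16 and from 28.2 ± 2.15 to 443.0 ± 30.9 in YUMM1.1 (SD, n = 3). Among the treated B16 libraries, the counts of IFNG 1 and IFNG 2 were close to each other and those of IFNG 3 stood apart: chi-square divided by its degrees of freedom was 1.27 within the first pair and 17.2 and 16.9 against the third. The untreated B16 libraries were also close to each other, at 2.22 (Control 1 and 2), 3.26 (Control 1 and 3) and 1.55 (Control 2 and 3). No alternative summed these untreated libraries. In YUMM1.1, Control 1 stood apart (41.5 and 32.3, against 14.0 for the other pair), as did IFNG 3 (30.7 and 30.4, against 13.5). Mitochondrial transcripts made up 1.95% of the counts in B16 IFNG 3 and 1.104% in YUMM1.1 Control 1, and 0.811% to 1.18% and 0.520% to 0.734% in the other libraries of their lines; their part in the results was not tested.

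The 2 lines held different sets of EMT factors before any treatment. B16 had Zeb2, a little Snai2 and almost nothing else, whereas YUMM1.1 had abundant Prrx1 with Zeb2, Snai2 and Twist1, and 5.24 times as much Vim by mean CPM. All 7 genes that passed the filter on low counts were called higher in untreated YUMM1.1 than in untreated B16, where 34.7% of the tested genes were called higher. Snai1, Twist1, Zeb1 and Prrx1 had too few reads to pass the filter in B16 alone and entered this test through their reads in YUMM1.1, so the count is partly fixed by the filter and is not read against that share. Vim, Zeb2 and Snai2 passed the filter within each line, and Twist2 passed it in neither.

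Prrx1, the most abundant factor of YUMM1.1 by CPM, was nearly missing from B16. The untreated YUMM1.1 libraries held 327.0, 320.8 and 292.7 CPM, from 5692 to 7313 reads each, and the untreated B16 libraries 5, 2 and 1 reads, or 0.634, 0.398 and 0.389 CPM. No B16 library came near any YUMM1.1 library. At the YUMM1.1 mean, the shallowest B16 library would have held 807 reads. The ratio of summed reads, scaled by library totals, was 608, with a 95% exact binomial counting interval of 308 to 1410 that covers counting error only. The edgeR log2 difference was 9.43 ± 0.25 (SE, adjusted p = 1.18e-14), in a test that Prrx1 entered only through its YUMM1.1 reads.

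Twist1, a basic helix-loop-helix factor of cranial neural crest and mesenchyme, was likewise nearly confined to YUMM1.1 among the untreated libraries. It was at 19.1, 30.8 and 22.1 CPM there, and the 3 untreated B16 libraries together held 1 read. At the YUMM1.1 mean of 24.0 CPM these B16 libraries would have held 189, 120 and 61.7 reads. The ratio was 367, with a counting interval of 65.8 to 14500 that spans the whole interval of Prrx1. The fitted log2 difference of 8.52 rests on that 1 read and was 11.45 without B16 Control 3, the library that holds it. Its relative Twist2 was very low: untreated B16 had 0 reads, which allows up to 0.194 CPM over the group, and untreated YUMM1.1 had 0, 7 and 2 reads, a mean of 0.156 CPM. A difference between the untreated lines in Twist2 was therefore not detectable at this depth. With IFNG it had 1 read in B16 and 30 in YUMM1.1 (0.429 ± 0.292 CPM), a ratio of 7.59 with a counting interval of 1.26 to 310.0 that leaves out the spread between libraries.

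The zinc-finger pairs split in a different way. Zeb1 was at 6.75, 9.92 and 6.89 CPM in untreated YUMM1.1 and at 3, 3 and 2 reads in untreated B16, a ratio of 15.1 with a counting interval of 7.59 to 35.1. Zeb2 was at 252.6, 185.4 and 193.4 CPM in YUMM1.1 and at 137.4, 151.8 and 171.0 in B16, a log2 difference of 0.68 ± 0.16 (edgeR, adjusted p = 0.0012). The Zeb2 groups did not overlap, as for the 30.4% of tested genes that were higher in every untreated YUMM1.1 library, but the highest B16 library came within 14.4 CPM of the lowest YUMM1.1 library. Snai2, which encodes Slug, was at 31.2, 30.6 and 27.7 CPM in YUMM1.1 and at 2.79, 4.58 and 2.72 in B16, with a log2 difference of 3.35 ± 0.20 (edgeR, adjusted p = 2.7e-10). Snai1 was low in both lines, at 0.939, 0.888 and 0.771 CPM in YUMM1.1 and at 3, 0 and 0 reads in B16. Its log2 difference of 2.34 ± 0.82 was called (edgeR, adjusted p = 0.0182), but not without the B16 Control 2 library (1.81, adjusted p = 0.0866), in a test that Snai1 entered only through its YUMM1.1 reads. Without B16 Control 1, which holds all 3 reads, it was 6.62 (adjusted p = 0.0105), so its size is poorly known, and the counting interval of its ratio of 4.49 ran from 1.45 to 22.5.

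Vim, the intermediate filament of mesenchymal cells, was high in both lines. Untreated B16 held 2073, 2026 and 1976 CPM and untreated YUMM1.1 8863, 12280 and 10710, so that the lowest YUMM1.1 library was 4.27 times the highest B16 library. The log2 difference was 2.61 ± 0.13 (edgeR, adjusted p = 2.03e-11).

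**Figure D1:**
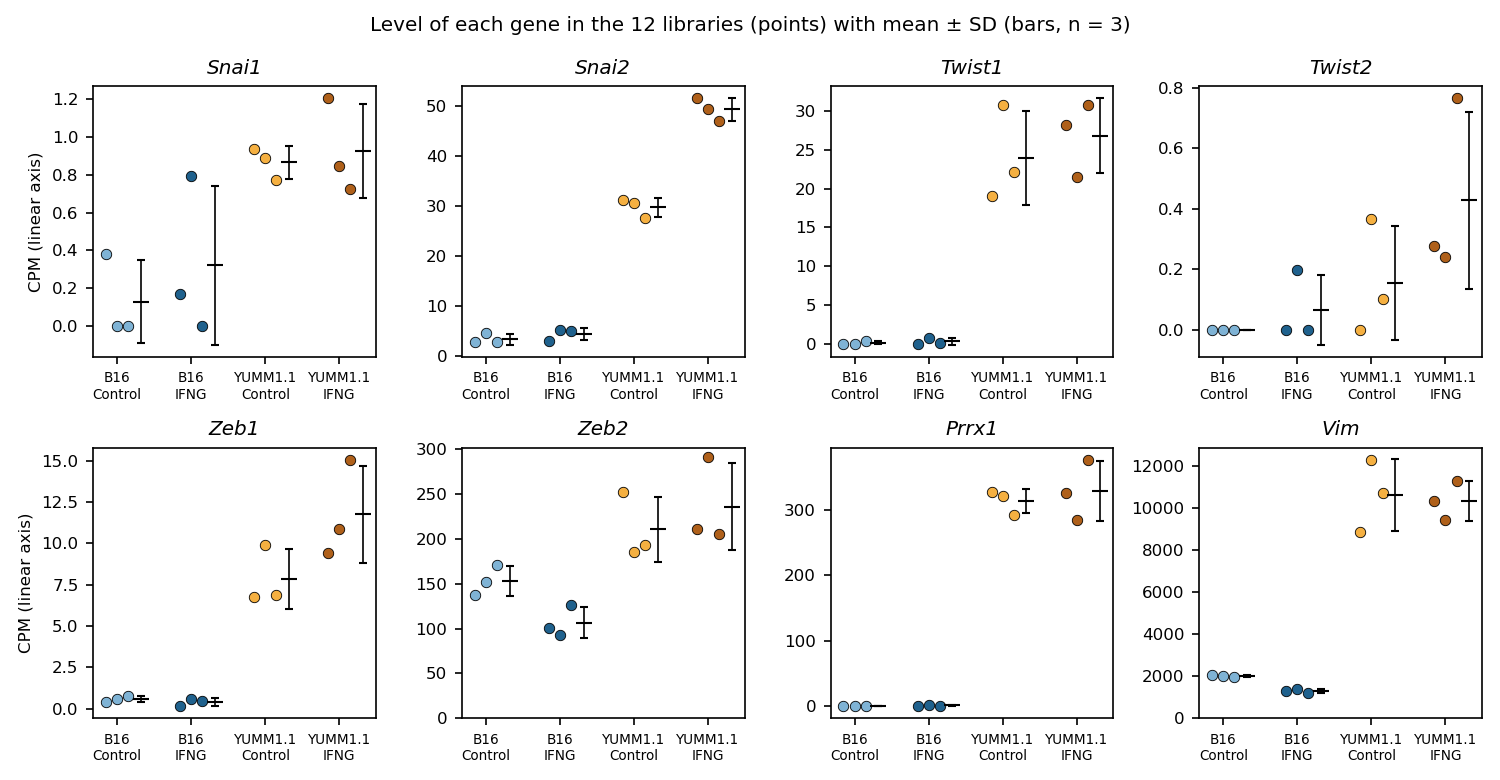
Each panel plots the level of 1 gene in CPM on a linear axis that differs between panels, with 1 point per library and the mean ± SD of 3 libraries beside it. Prrx1 and Twist1 are near 0 in all 6 B16 libraries, Vim falls from about 2025 to 1310 CPM with IFNG in B16, and Snai2 rises from 29.8 to 49.4 CPM with IFNG in YUMM1.1.

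After treatment the same 7 genes were again called higher in YUMM1.1, where 36.6% of all tested genes were called higher, and the same limit of the filter applies to the same 4. The log2 differences between treated lines were 8.36 for Prrx1, 6.64 for Twist1, 4.98 for Zeb1, 3.62 for Snai2, 3.10 for Vim and 1.27 for Zeb2. Snai1 was at 1.77 (edgeR, adjusted p = 0.0346), its groups overlapped, and the call was lost with DESeq2 (adjusted p = 0.0828), without B16 IFNG 1 (0.125) and without B16 IFNG 3 (0.174). Without B16 IFNG 2, which holds 4 of the 5 treated B16 reads of both Snai1 and Twist1, their differences were 3.53 and 8.38. The lines also differ in sequencing depth, and differences between them cannot be told apart from differences between the sequencing of their libraries.

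Markers of cell types moved with the line. The summed level of 8 melanocyte lineage markers was 28380 to 28570 CPM in untreated B16 and 723 to 788 in untreated YUMM1.1, where Sox10 was at 702.5 ± 31.7 CPM, Tyrp1 had 0 reads, and Tyr, Dct and Mlana were at 0.0298, 0.0149 and 0.0691 CPM. The sum of 8 fibroblast markers was 6.72 to 15.2 CPM in untreated B16 and 2234 to 3620 in untreated YUMM1.1. Col3a1 and Postn carried the latter sum, while Thy1 and Fap had 0 reads, and Dcn and Lum were at 0.0298 and 0.0174 CPM. Sums of 8 leukocyte markers were 2.28 to 7.18 CPM over the 4 groups, and Ptprc was at or below 0.0664 CPM in each group mean. The 5 keratinocyte markers had 0 reads in B16 and summed to 3.87 to 4.70 CPM in YUMM1.1, nearly all Krt10, and the 5 endothelial markers summed to at most 3.51 CPM in any library. Their part in the differences of the EMT factors was not tested, and in bulk samples fewer cells of a type and less RNA per cell cannot be told apart.

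Per length of transcript, the factors stood in a different order in the lines. In untreated B16, Zeb2 made up 89.2% ± 2.05 of the summed RPKM of the 7 factors and Snai2 8.87% ± 2.73 (SD, n = 3), and each of the other factors was under 1%. In untreated YUMM1.1, Prrx1 made up 53.8% ± 0.414, Zeb2 19.6% ± 2.93, Snai2 12.5% ± 0.0644, Twist1 12.5% ± 3.00 and Zeb1 1.15% ± 0.235. The mean levels there were 63.3 RPKM for Prrx1, 23.1 for Zeb2, 14.8 for Snai2, 14.7 for Twist1, 1.35 for Zeb1, 0.534 for Snai1 and 0.0619 for Twist2. Snai2 and Twist1 did not differ beyond their spread. The summed level of the 7 factors was 18.8 ± 1.85 RPKM in untreated B16 and 117.8 ± 7.41 in untreated YUMM1.1. Vim stood far above every factor, at 923.4 ± 22.2 and 4842 ± 780.8 RPKM.

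These levels depended on the length used. Per length of all annotated exons, a setting added after the values were seen, the sums were 9.61 ± 0.890 RPKM in untreated B16 and 69.7 ± 4.75 in untreated YUMM1.1, and Vim was at 427.0 and 2239 RPKM. Zeb2 then made up 79.98% ± 3.59 and Snai2 17.3% ± 4.93 in untreated B16. In untreated YUMM1.1, Prrx1 made up 40.7% ± 1.36 at 28.3 RPKM, Snai2 21.2% ± 0.696 and Twist1 21.1% ± 4.49, and Zeb2 came below them with 15.2% ± 2.69 at 10.6 RPKM. Under both lengths Zeb2 led the factors in untreated B16 and Prrx1 in untreated YUMM1.1.

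**Figure D2:**
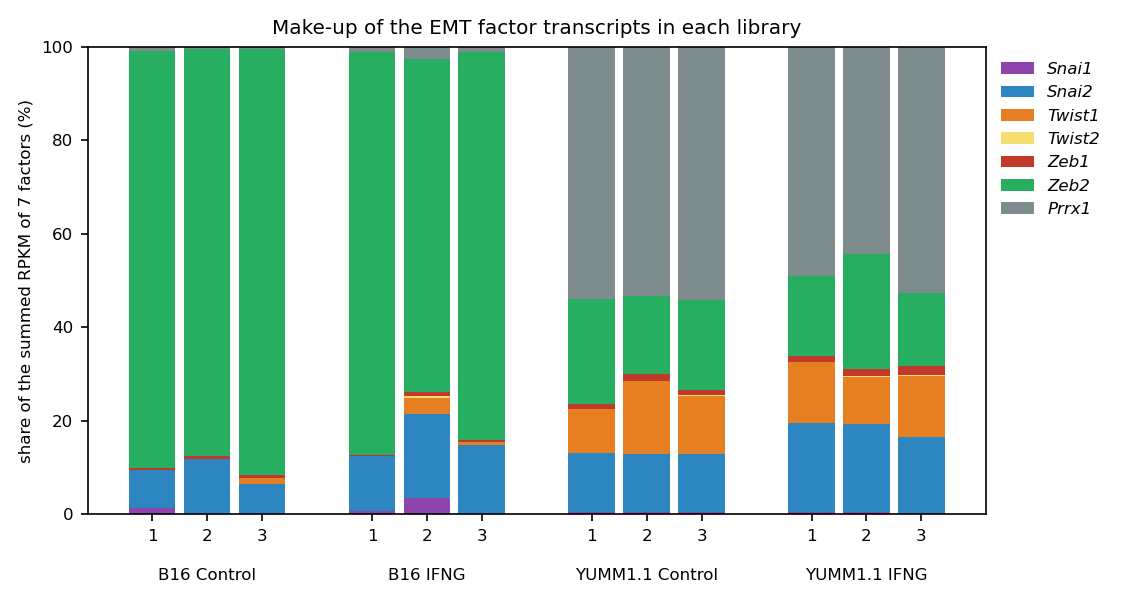
Stacked bars give the share of each factor in the summed RPKM of the 7 EMT factors, in percent, for each of the 12 libraries by group. Zeb2 takes 71.4% to 91.3% in the B16 libraries, and Prrx1 takes 44.3% to 54.1% in the YUMM1.1 libraries.

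The balance between factors was compared within libraries, as ratios of reads per length of the principal transcript with 0.5 counts added per gene. The log2 ratio of Zeb2 to Zeb1 was 7.62, 7.11 and 6.81 in untreated B16 and 4.57, 3.57 and 4.15 in untreated YUMM1.1. All B16 values lay above all YUMM1.1 values, a difference of -3.09 for YUMM1.1 minus B16 (exact two-sided permutation p = 0.1, the smallest that 3 against 3 libraries allow). The untreated B16 values rest on 3, 3 and 2 Zeb1 reads, so the size is poorly known. It was -2.53 with 2 counts added and -3.34 with none. The log2 ratio of Snai2 to Twist1 was 0.4, -0.32 and 0.01 in untreated YUMM1.1 and 0.56, 0.89 and 0.3 after IFNG. These groups overlapped, with a difference of 0.55 (exact permutation p = 0.2). With IFNG the Zeb2 to Zeb1 ratio differed by -0.42 in YUMM1.1 (exact permutation p = 0.4) and by 0.04 in B16 (p = 1.0), and its sign in B16 turned with the pseudocount.

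IFNG lowered Vim in B16. It was the 1 gene called of the 3 that passed the low-count filter there (Vim, Zeb2 and Snai2), in a comparison that called 44.1% of all tested genes and 22.0% as lower, so that 1 of 3 is not above the background. The median log2 change of these 3 was -0.33, against -0.0075 over all tested genes. Vim went from 2073, 2026 and 1976 CPM to 1310, 1401 and 1219 CPM. All treated libraries lay below all untreated ones in CPM, as for 41.3% of the tested genes, and the log2 change was -0.44 ± 0.08 (edgeR, adjusted p = 0.00224; 2.95e-06 to 0.0119 over the alternatives), or 1.35-fold lower.

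Zeb2, the leading factor of B16, was at 137.4, 151.8 and 171.0 CPM without and at 100.7, 92.8 and 125.8 CPM with IFNG. The groups did not overlap in CPM, among the same 41.3% of genes, but the log2 change of -0.33 ± 0.13 was not called (edgeR, adjusted p = 0.0705). It was called with library totals (-0.52, edgeR, adjusted p = 0.0107), with no low-count filter (-0.34, 0.026) and with a replicate block (-0.34, 0.00954). It was also called without B16 IFNG 3 (-0.44, 0.000133), which leaves IFNG 1 and IFNG 2, whose counts were close to each other. In that setting the calls over all genes rose from 4958 to 6368. With IFNG 1 and IFNG 2 summed into 1 library, Zeb2 was not called (-0.26, 0.189). The adjusted p ranged from 0.000133 to 0.215 over all alternatives. The gene overlaps the antisense transcript Zeb2os over 653 exon bases, and without known strand their reads there cannot be told apart; Zeb2os itself was counted at 1 to 9 reads in the B16 libraries.

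Snai2 in B16 was at 2.79, 4.58 and 2.72 CPM untreated and at 3.01, 5.17 and 4.97 CPM treated, with overlapping groups and a log2 change of 0.55 ± 0.31 (edgeR, adjusted p = 0.177). The other 5 factors had too few reads in B16 for the test. Summed reads without and with IFNG were 3 and 5 for Snai1, 1 and 5 for Twist1, 0 and 1 for Twist2, 8 and 7 for Zeb1, and 8 and 19 for Prrx1. Counting intervals of the ratios of treated to untreated reads, scaled by library totals, reached from 0.284 to 9.41 for Snai1, 0.491 to 207.0 for Twist1, 0.237 to 2.42 for Zeb1 and 0.87 to 5.5 for Prrx1. Each interval holds 1, so no change in these 4 was detectable at this depth. Treated B16 still held far less than YUMM1.1 of each of Prrx1 (1.12 ± 0.591 against 328.6 ± 46.0 CPM) and Twist1 (0.315 ± 0.422 against 26.8 ± 4.80 CPM).

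Of the 8 melanocyte lineage markers, 4 were called higher and 2 lower with IFNG in B16 (edgeR), and their summed level was 28380 to 28570 CPM without IFNG and 33520 to 35490 CPM with it. Fibroblast marker sums were 6.72 to 15.2 CPM without and 4.51 to 19.7 CPM with IFNG. Their part in the fall of Vim was not tested.

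In YUMM1.1, IFNG raised Snai2. It was the 1 gene called of the 7 that passed the filter, where 4.56% of all tested genes were called and 3.73% as higher. The median log2 change of the 7 was 0.24, against -0.0056 over all tested genes. Snai2 was at 31.2, 30.6 and 27.7 CPM untreated and at 51.6, 49.5 and 47.1 CPM treated. All treated libraries lay above all untreated ones in CPM, as for 7.72% of the tested genes, and the log2 change was 0.80 ± 0.11 (edgeR, adjusted p = 0.001; 8.12e-08 to 0.00972 over the alternatives), or 1.75-fold. It was 0.83 without Control 1 and 0.83 without IFNG 3. Its share of the summed RPKM of the factors was 12.5% ± 0.0644 untreated and 18.04% ± 1.61 treated.

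Zeb1 was the other factor with a value of similar size in YUMM1.1. It was at 6.75, 9.92 and 6.89 CPM untreated and at 9.41, 10.9 and 15.1 CPM treated. The groups overlapped by 1 library on each side, and the log2 change of 0.67 ± 0.22 was not called (edgeR, adjusted p = 0.173; 0.0115 with no low-count filter, where it was called, to 0.424 without YUMM1.1 IFNG 3).

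The remaining YUMM1.1 genes had overlapping groups and were not called by edgeR. Twist1 was at 28.2, 21.5 and 30.8 CPM treated, a log2 change of 0.24 ± 0.20 (adjusted p = 0.657), and Prrx1 at 325.2, 284.3 and 376.2 CPM, a change of 0.15 ± 0.13 (0.681). Zeb2 was at 210.6, 291.7 and 205.8 CPM, a change of 0.24 ± 0.16 (0.563), and Snai1 at 1.21, 0.849 and 0.723 CPM, a change of 0.16 ± 0.34 (0.891). Vim, which was lower with IFNG in B16, was at 10320, 9416 and 11280 CPM, a change of 0.04 ± 0.16 (0.951) whose sign turned to -0.04 under scaling by library totals. Twist2 had 9 reads untreated and 30 treated, with 18 of these in the IFNG 3 library, and it did not pass the filter. Its ratio was 2.91, with a counting interval of 1.35 to 6.97 that leaves out the spread between libraries, and 1477 of its exon bases are shared with the antisense gene Gm29100. The sum of the 8 melanocyte lineage markers was 723 to 788 CPM without and 789 to 820 with IFNG in this line, and that of the fibroblast markers 2234 to 3620 and 2449 to 3192; their part in the rise of Snai2 was not tested.

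**Figure D3:**
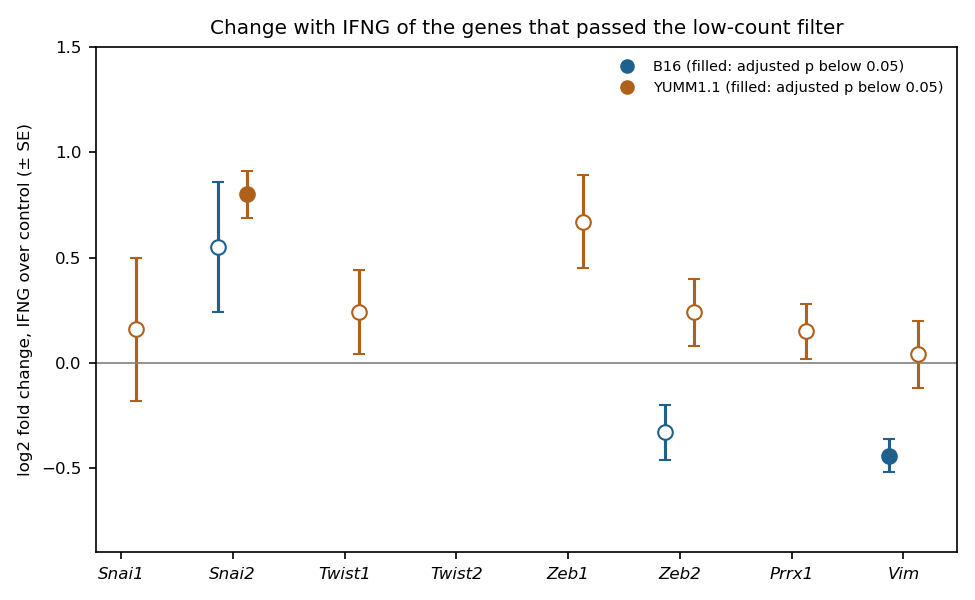
Points give the log2 fold change with IFNG of each gene that passed the low-count filter in B16 and in YUMM1.1, with bars of ± SE, and filled points have an adjusted p below 0.05. Vim in B16 at -0.44 and Snai2 in YUMM1.1 at 0.80 are filled, and genes without a point in a line had too few reads there.

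Whether IFNG acted differently in the lines was tested as the interaction of line and treatment over all 12 libraries. Of the 7 tested genes, edgeR called 0, where 18.5% of all tested genes were called. At an unadjusted p below 0.05 there were 2, Vim and Zeb2, while DESeq2 called 0 and limma-voom 1. For Vim the YUMM1.1 change exceeded the B16 change by 0.49 ± 0.17 on the log2 scale (edgeR, adjusted p = 0.0575; 0.0163 to 0.153 over the alternatives), and limma-voom called it (0.0444). For Zeb2 the difference was 0.59 ± 0.22 (edgeR, adjusted p = 0.0807; 0.0149 to 0.22). Both were called with library totals (Vim 0.59, 0.0201, and Zeb2 0.69, 0.0468) and with no low-count filter (Vim 0.53, 0.0414, and Zeb2 0.62, 0.0149). Vim was called without YUMM1.1 Control 2 (0.62, 0.0163), and Zeb2 without B16 IFNG 3 (0.72, 0.034) or without YUMM1.1 Control 1 (0.74, 0.0271). With B16 IFNG 1 and IFNG 2 summed into 1 library, neither was called (Vim 0.51, 0.0979, and Zeb2 0.52, 0.163). The Snai2 changes differed by 0.27 ± 0.30 (adjusted p = 0.592), so the rise called in YUMM1.1 was not shown to be larger than the value in B16.

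The authors' deposited table gives Vim in B16 a log2 fold change of -0.41 (unadjusted p = 5.49e-05). For Zeb2 in B16 the authors' deposited table has -0.30 (unadjusted p = 0.0452). In YUMM1.1 the authors' deposited table has 0.80 for Snai2 (unadjusted p = 1.3e-09) and 0.67 for Zeb1 (unadjusted p = 0.00561).

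Genes that work with the EMT factors were read from lists chosen by function. In B16, 7 of 13 paralogs and E-protein partners were tested, with 3 called higher and 2 lower and a median log2 change of 0.22, and the 3 risers were the Id genes, whose products bind E proteins and keep them from pairing with Twist. Id2 went from 169.3 ± 9.10 to 784.7 ± 128.4 CPM, a log2 change of 2.41 ± 0.12 (edgeR, adjusted p = 4.13e-07). Id1 changed by 1.79 ± 0.20 and Id3 by 0.99 ± 0.14. In YUMM1.1 the Id2 change was 0.22 ± 0.12 (adjusted p = 0.429), and 1 of 8 tested genes of the list was called, the E-protein gene Tcf4, at 29.4 ± 5.25 and 46.6 ± 5.35 CPM with a log2 change of 0.74 ± 0.15 (edgeR, adjusted p = 0.0165).

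Corepressors and enzymes that act with or on the Snai and Zeb proteins were all tested, 13 of 13 in both lines. In B16, 6 were called lower and 1 higher, with a median of -0.30. The Polycomb methyltransferase gene Ezh2 went from 191.3 ± 28.4 to 98.9 ± 4.85 CPM (-0.75 ± 0.12, edgeR, adjusted p = 0.000743). Sin3a, a scaffold of histone deacetylase complexes, changed by -0.64 ± 0.11, and the Zeb corepressor genes Ctbp2 and Ctbp1 by -0.75 ± 0.13 and -0.40 ± 0.10. In YUMM1.1 edgeR called 0 of the 13, and Ctbp1 there had a value of -0.14 ± 0.15 (adjusted p = 0.732).

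Of 11 genes of TGF-beta signalling, a pathway upstream of EMT factors, B16 had 3 called higher and 4 lower, with a median of -0.026. Feedback inhibitors were among the risers: Smad7 went from 9.65 ± 0.672 to 27.1 ± 2.61 CPM (1.70 ± 0.15, edgeR, adjusted p = 1.83e-05), and Skil changed by 1.37 ± 0.16. The other riser, Smad3, is not such an inhibitor and changed by 0.42 ± 0.12 (edgeR, adjusted p = 0.0202). The 4 called lower were the ligand genes Tgfb1 (-0.88 ± 0.20), Tgfb2 (-1.14 ± 0.35) and Tgfb3 (-0.86 ± 0.19) and the Smad corepressor gene Ski (-0.36 ± 0.11). In YUMM1.1 edgeR called 0 of the 11, and Smad7 was at -0.06 ± 0.22 (adjusted p = 0.949).

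Most genes on the epithelial side had too few reads for a test. Of 18 epithelial genes, 1 was tested in each line, the tight junction gene Tjp1, at -0.08 ± 0.11 in B16 and 0.04 ± 0.14 in YUMM1.1, and edgeR called it in neither. Of 14 mesenchymal genes, 10 were tested in B16 with 4 called higher and 2 lower (median 0.45), and 12 in YUMM1.1 with 0 called. In B16 the secreted phosphoprotein gene Spp1 went from 3.63 ± 0.462 to 31.9 ± 2.80 CPM (3.28 ± 0.17, edgeR, adjusted p = 3.98e-07) and fibronectin, Fn1, changed by 0.88 ± 0.19, while N-cadherin, Cdh2, went the other way at -0.64 ± 0.10 (adjusted p = 0.000695). Sparc, the most abundant of the list, changed by 0.27 ± 0.08 in B16 (adjusted p = 0.0203) and had a value of -0.12 ± 0.14 in YUMM1.1 (0.775).

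Other intermediate filament genes moved in B16 with larger sizes than Vim and in both directions. Of 13 filament and linker genes, 8 were tested, with 3 called higher and 4 lower (median -0.36). Nes, whose product nestin assembles together with vimentin, went from 316.7 ± 16.3 to 43.4 ± 3.83 CPM, a log2 change of -2.68 ± 0.11 (edgeR, adjusted p = 6.63e-08). Desmin, Des, changed by -3.23 ± 0.26, from 10.5 ± 1.18 to 0.977 ± 0.190 CPM. Peripherin, Prph, a filament of peripheral neurons, changed by 6.55 ± 0.25, from 3.37 ± 0.243 to 281.9 ± 69.0 CPM, and lamin A/C, Lmna, by 0.89 ± 0.14. In YUMM1.1, 2 of 10 were called, both lower: the neurofilament gene Nefl at -1.53 ± 0.24 (adjusted p = 0.00355) and the lamin gene Lmnb1 at -0.51 ± 0.12 (0.0401), which also changed by -0.81 ± 0.09 in B16. Nes in YUMM1.1 was at 1036 ± 233.0 and 1140 ± 234.4 CPM, a value of 0.21 ± 0.19 (0.679). Nothing particular to a list is read from these counts, since 44.1% of all tested genes were called in B16 and 4.56% in YUMM1.1.

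**Figure D4:**
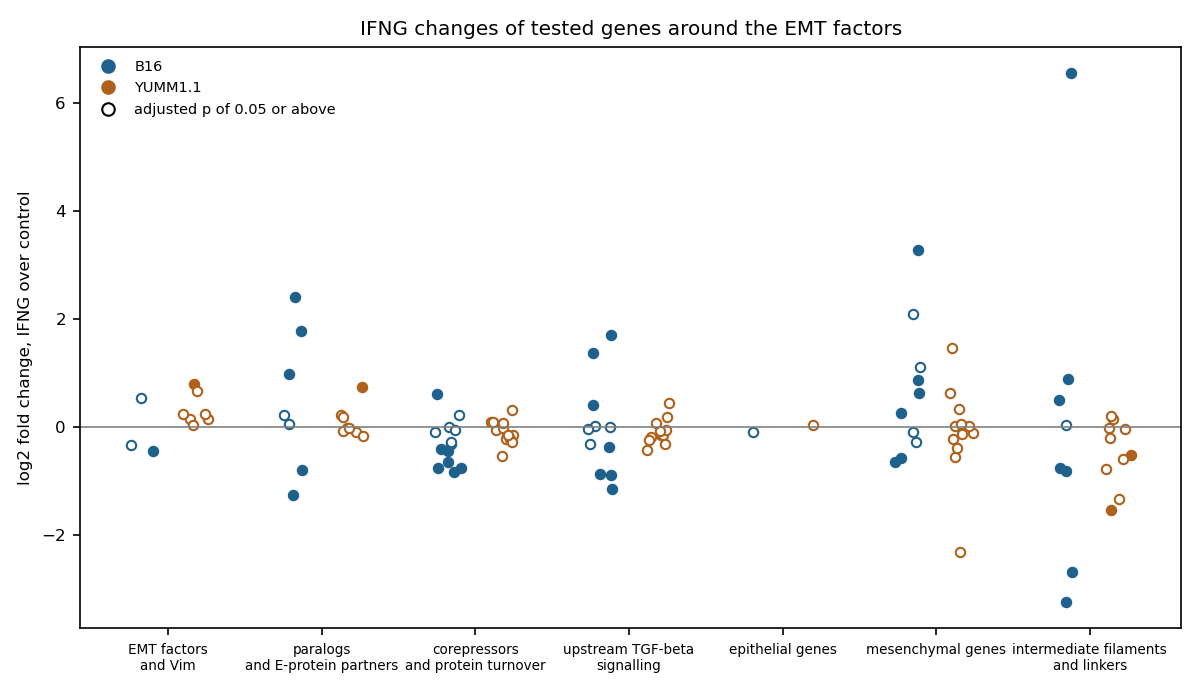
Each point is the log2 fold change with IFNG of 1 tested gene, by functional list and line, and filled points have an adjusted p below 0.05. In B16 the filament list reaches from Des at -3.23 to Prph at 6.55, while most YUMM1.1 points are open and near 0.

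The genes most like each EMT gene across the 12 libraries were found by Pearson's r of log2 CPM among 10142 genes. The values of Prrx1, Twist1 and Vim were closest to those of Pcdhgc3 (0.998), Col6a1 (0.995) and Tes (0.998). For Snai2 the closest was Them6 (0.987), for Zeb1 Car5b (0.989), for Snai1 Toe1 (0.928) and for Zeb2 Fmnl2 (0.985). The libraries form 1 cluster per line, with different depths, so each r largely states that a gene shares the difference between the lines.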

How the data were processed

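Read counts of total RNA were analysed for 12 libraries, grouped by the sample labels. The deposited tables hold whole-number counts per Ensembl gene ID with no normalization. The authors' deposited comparison tables hold, for each gene, a log2 fold change with its p-value (not adjusted) and a score, the test statistic, and were used only for the values credited to them. The submitters' processing notes name GRCm38; for the aligner, counter, annotation release and strand nothing is stated there. Symbols and lengths came from GENCODE M21.

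Counts were filtered with filterByExpr, scaled with TMM and tested with edgeR 4.0.16 in R 4.3.3, on the 6 libraries of a line for IFNG and on all 12 for differences between lines. Each SE was computed as the size of the log2 value divided by the root of its F statistic. DESeq2 1.42.0, limma-voom (3.58.1), other scalings and filters, a replicate block and leaving out each library were alternatives. The script was tested on simulated data. Ratios between factors were taken per length of the principal transcript after 0.5 counts were added per gene. Groups with few reads got exact binomial intervals at 95% and a floor of 3 counts over the group. Genes, lists, tests and the naming rule (per list, up to 3 called genes by adjusted p and the most abundant) were chosen with earlier results of these data known. Tcf3, Klf4, Tcf4, Tcf12, Smad3, Tgfb1 and Tgfb2 in B16 were named beyond this rule.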

Additional observations from a re-analysis of the deposited data

How the results depend on the processing

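Vim in B16, Snai2 in YUMM1.1 and all differences between the lines except those of Snai1 kept their direction and their side of the threshold under every alternative run. For Twist1, Zeb1 and Prrx1, which entered the comparison of lines through their YUMM1.1 reads, that outcome was partly fixed by the filter. Of 572 values of single genes under an alternative, 547 kept both, 13 passed the threshold newly, 6 no longer passed it and 6 turned sign. The number of EMT genes called in B16 went from 1 to 2 with library totals, with no filter and with a replicate block, and was 1 to 2 when each library was left out in turn. In YUMM1.1 it went from 1 to 2 with no filter. For the difference of the effects it went from 0 to 2 with library totals and with no filter and to 1 with limma-voom, and was 0 to 1 when each library was left out. Values that turned sign were small or rested on few reads: Vim in YUMM1.1 was at -0.04 with library totals and at -0.08 to 0.16 with libraries left out, Snai1 in YUMM1.1 was at -0.06 to 0.30 and the differences of the effects at -0.01 to 0.45 for Snai2 and -4.84 to 1.17 for Snai1 with libraries left out. In B16 the change of the Zeb2 to Zeb1 ratio was -0.07 with 2 counts added and -0.35 to 0.44 with libraries left out, and that of the Snai2 to Twist1 ratio was 0.09 and -1.44 to 0.39. The causes were not tested. Deviations of same-numbered libraries had r of 0.283, 0.005 and 0.281 in B16, where differently numbered pairs had -0.355 to 0.249. In YUMM1.1 same-numbered pairs had -0.012, -0.429 and -0.072, and differently numbered pairs -0.315 to 0.436. With the replicate block, the calls over all genes went from 4958 to 5765 in B16 and from 591 to 560 in YUMM1.1. The labels do not say what libraries of the same number share. Over all genes, the calls went from 591 to 1055 with no filter and to 357 at an adjusted p below 0.01 in YUMM1.1, and at that threshold from 4958 to 3295 in B16 and from 2510 to 1355 for the difference. In B16, 2486 of 4958 calls were higher, and 1702 of 5574 with library totals. Depth limits Snai1, Twist1, Twist2, Zeb1 and Prrx1 in B16.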
